A study of Mus musculus with 12 samples.

Results

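The genes described here are 10 genes of the intestinal goblet cell, the mucus-secreting cell of the gut epithelium, and they were followed across mouse colon and ileum mucosa. They are Muc2, Fcgbp, Clca1, Zg16, Agr2, Spink4, Tff3, Retnlb, Klk1 and Creb3l1. A gene's value on an array is the median of all array rows whose platform annotation gives exactly 1 symbol, that of the gene, on the log2 scale. The 10 genes held 243 of the 719071 rows for exon regions and exon junctions, and 10 of the 31383 genes so defined. No measured value entered the choice of rows, but the 10 genes themselves were chosen with earlier results of these data known. Shares of all genes or rows given beside their counts are therefore descriptions.

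Mucosa had been laser-microdissected from colon or ileum sections of untreated male C57BL6/J mice aged 4 to 6 weeks. Knockout mice (FSPCre-PPARB -/-) carried a floxed Ppard gene, which encodes the nuclear receptor PPARβ/δ, and a Cre recombinase under the FSP promoter, named for fibroblast-specific protein 1. Control littermates were PPARB flox/flox, so both genotypes carried the floxed gene and only the former were labelled with Cre. Each of the 4 groups (colon floxed, colon knockout, ileum floxed, ileum knockout) had 3 arrays, 12 in all, and the number of arrays limits the precision of every value. The Cre driver is one of fibroblasts, whereas goblet cells are epithelial, so the deletion is not labelled as one of the goblet cell itself. A single label field names tumors as the source of the sections. All other fields name mucosa, and they were followed. It is not stated that the arrays of a group came from separate mice, nor whether a mouse gave both colon and ileum, so p-values measure only how these samples spread, which may be partly technical.

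Goblet cells pack gel-forming mucin into granules and release it onto the epithelial surface, where it swells into the mucus that holds bacteria away from the cells. In the colon this mucus forms a dense inner layer, and in the small intestine a looser one. Muc2 is the framework of the gel. Fcgbp, Clca1 and Zg16 are secreted with it and make up much of the rest of the mucus protein: Fcgbp is a large protein with von Willebrand D domains, Clca1 a metalloprotease that cleaves Muc2, and Zg16 a lectin that binds cell walls of Gram-positive bacteria. Tff3 is a trefoil peptide of epithelial repair, Retnlb (RELMβ) a secreted antibacterial and anti-helminth protein, Spink4 a Kazal-type protease inhibitor and Klk1 the tissue kallikrein, a serine protease. Agr2 is a disulfide isomerase of the endoplasmic reticulum that mucin production needs, and Creb3l1 (OASIS) is a transcription factor held in that membrane.

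The symbol Clca1 needed care. The platform annotation, dated 2016, uses older names of this family, and the current mouse table lists Clca1 as a synonym of Clca3a1, and Clca3 and gob-5 as synonyms of Clca1. The 34 rows annotated Clca1 therefore follow the selection rule, but by the current names they are rows of Clca3a1. The 28 rows annotated Clca3, which by the current names are those of the goblet cell protease, are given beside them and called Clca1 from here on. The match rests on symbols alone. On the 12 arrays the rows annotated Clca1 had gene values from 2.76 to 4.05, and the rows annotated Clca3 from 6.95 to 9.16. Counts of members below take the rows annotated Clca1. The other rows took their place in the main fit alone, with row medians, all arrays and no covariate or weights. There none of the counts of members past the threshold changed.

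The regional markers that passed went with the tissue labels. Over both genotypes 7 of 8 ileum markers were higher in ileum, and 2 of 5 measured colon markers were lower there. The rest of these markers did not pass. Fabp6, the ileal bile acid binding protein, was 7.07 higher in ileum than in colon on the log2 scale (limma adjusted p = 7.11e-09), and Car1, a carbonic anhydrase of colonocytes, fell by 6.64 (adjusted p = 9.61e-07). Epcam, the general epithelial marker, had group means of 7.39 to 8.38, and exocrine pancreas markers had group medians of 3.46 to 3.68 against array medians of 3.76 to 3.86. The mean Ppard value was 6.74 ± 0.15 in floxed against 6.88 ± 0.43 in knockout colon, and 6.39 ± 0.21 in floxed against 6.78 ± 0.17 in knockout ileum (SD, n = 3). It was thus no lower in knockout mucosa (adjusted p = 0.89 in colon and 0.711 in ileum), and since the labels do not give the deleted exons these values do not check the genotype labels. The control rows with GC-rich probes (15 to 25 G or C bases), used as a measure of array background, had lower means in the knockout arrays of both tissues, and their values stand beside the genotype comparison below.

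**Figure D1:**
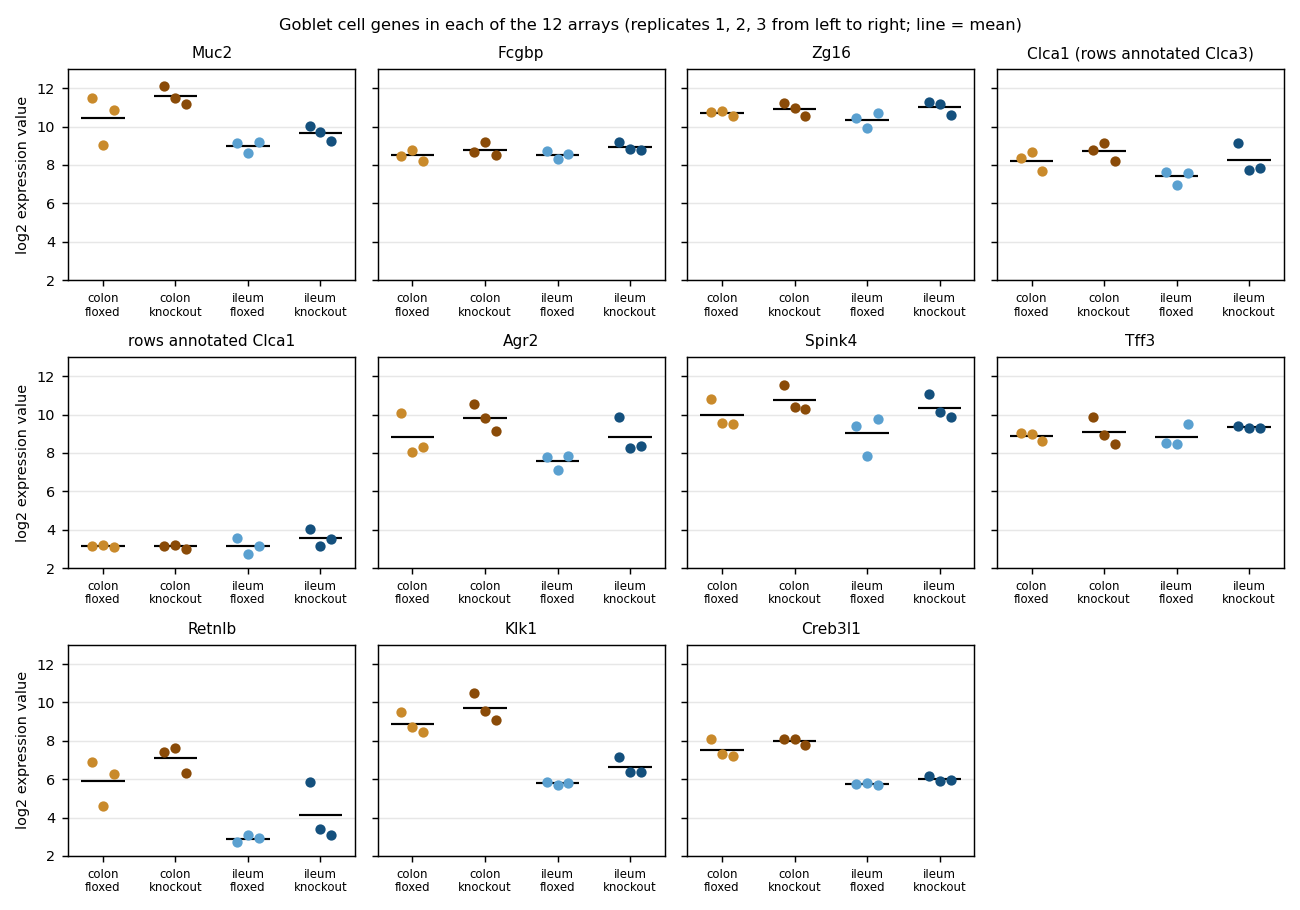
Log2 expression value of each goblet cell gene on each of the 12 arrays, with the 3 arrays of a group side by side and a line at the group mean. Klk1 and Creb3l1 are lower in every ileum array than in every colon array, Muc2 in colon floxed 2 lies at 9.05, below the other colon arrays, and Fcgbp, Zg16 and Tff3 lie at similar levels in all 4 groups.

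The regional comparison asked how goblet cell genes differ between the ileum and the colon. Averaged over both genotypes, 4 of the 10 genes were lower in ileum and none was higher: Klk1 by 8.49-fold, Creb3l1 by 3.68-fold, Muc2 by 3.22-fold and Retnlb by 8.05-fold, the last a compressed value because Retnlb lay below the array medians in floxed ileum. Over all 31383 genes 0.781% were called lower and 1.03% higher by the same test, limma with Benjamini-Hochberg adjusted p under 0.05. The other members did not pass, and for Fcgbp, Zg16 and Tff3 the differences were close to 0. The median difference of the 10 genes was -0.89, against -0.01 for all genes. In bulk mucosa fewer goblet cells and less RNA per goblet cell cannot be told apart. The members differed from one another in the size of the regional difference.

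Klk1 had the lowest p of the members. Floxed colon arrays gave 9.48, 8.71 and 8.46 (replicates 1 to 3) and knockout colon arrays 10.50, 9.54 and 9.08. Floxed ileum arrays gave 5.87, 5.69 and 5.82 and knockout ileum arrays 7.13, 6.37 and 6.39. Every ileum array thus lay below every colon array, as was the case for 0.854% of all genes. The difference was -3.09 with a standard error of 0.24 (adjusted p = 1.13e-05), and it was -3.09 in floxed (adjusted p = 0.000748) and -3.08 in knockout mice (adjusted p = 0.000495). Klk1 belongs to a mouse family of near-identical kallikreins, so the gene's own share of this signal is uncertain.

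Creb3l1 read 8.11, 7.29 and 7.20 on the floxed colon arrays and 8.11, 8.12 and 7.76 on the knockout ones. In ileum it read 5.76, 5.83 and 5.71 for floxed and 6.18, 5.90 and 5.94 for knockout mice. The 6 arrays of each tissue did not overlap, and the ileum arrays of a genotype spread by no more than 0.16 (SD, n = 3). The difference was -1.88 with a standard error of 0.15 (adjusted p = 1.29e-05), and it passed in floxed (-1.76, adjusted p = 0.00133) and in knockout mice (-1.99, adjusted p = 0.000375) taken alone. Within a genotype, lower calls were made for 0.191% of all genes in floxed and for 0.312% in knockout mice, and Klk1 and Creb3l1 were the members among them.

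Retnlb was the most variable member. The floxed colon arrays read 6.92, 4.61 and 6.27 and the knockout colon arrays 7.43, 7.61 and 6.34. Floxed ileum arrays read 2.72, 3.09 and 2.93, below the array medians, where a difference is compressed. Knockout ileum arrays read 5.87, 3.41 and 3.11, so that ileum knockout 1 lay above colon floxed 2 and the tissues overlapped. The difference over both genotypes was -3.01 with a standard error of 0.48 (adjusted p = 0.00389). In each genotype alone it was as large, -3.02 and -2.99, without passing (adjusted p = 0.086 in floxed and 0.0711 in knockout mice). It passed in both genotypes when either colon floxed 2 (adjusted p = 0.0409 and 0.0398) or ileum knockout 1 (0.0102 and 0.00403) was left out. Without any other single array it passed in neither, with adjusted p up to 0.349 in floxed and 0.307 in knockout mice. With all arrays it passed in both genotypes with the mean of rows in place of the median (0.0498 and 0.0355), with array background as a covariate (0.0195 and 0.0161) and with array weights (0.0117 and 0.00863). It also passed in both genotypes with the replicate number as a block (0.0385 and 0.0335), and in floxed mice only with exon junctions alone (0.0182). Under changes of processing where it did not pass, the adjusted p reached 0.127 in floxed and 0.273 in knockout mice.

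Muc2 read 11.47, 9.05 and 10.86 on the floxed colon arrays and 12.09, 11.47 and 11.17 on the knockout colon arrays. The ileum arrays read 9.16, 8.62 and 9.18 for floxed and 10.04, 9.74 and 9.26 for knockout mice. Colon floxed 2 lay among the ileum arrays, and the other 5 colon arrays lay above all ileum arrays. The difference was -1.69 with a standard error of 0.34 (adjusted p = 0.0204), and it did not pass within floxed (-1.47, adjusted p = 0.435) or knockout mice (-1.90, adjusted p = 0.126). This call depended on single arrays. Without colon floxed 3, colon knockout 1, colon knockout 2 or ileum knockout 3 the adjusted p was 0.0627, 0.0547, 0.0517 and 0.0604, while without colon floxed 2 the difference was -2.04 (adjusted p = 0.000275) and it passed in each genotype alone (0.0107 in floxed and 0.00662 in knockout mice).

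The low Muc2 value of colon floxed 2 was not the work of a few rows. All 86 Muc2 rows on that array were below the mean of the other 2 floxed colon arrays, with differences from -2.73 to -0.15 and a median of -1.91. Retnlb was low on the same array. Fcgbp (8.77), Zg16 (10.83) and Clca1 (8.67) were at the highest value of their group there. Agr2 (8.04) was at the lowest value of its group, and Spink4, Klk1 and Creb3l1 lay below their group means, by 0.40, 0.17 and 0.24. The mean of the goblet cell genes was also the lowest of the group, at -0.34 from the group mean against 0.56 and -0.22 on the other floxed colon arrays.

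Promoter sequence from RefSeq (build GRCm38.p6, 250 bases before to 50 after the gene start) was at hand for 4 of the 10 members, Muc2, Klk1, Fcgbp and Agr2. Shown are a pair that was lower in ileum (Klk1 and Muc2) and the member with the smallest regional difference (Fcgbp), on the plus strand at chr7:44225110-44225409, chr7:141690090-141690389 and chr7:28070986-28071285. Capitals mark matches on either strand to the core promoter box TATAAA, the motif TTTATNG of CDX factors, the E-box CAGNTG and the GC box GGGCGG, and no match overlapped another.
Klk1 promoter: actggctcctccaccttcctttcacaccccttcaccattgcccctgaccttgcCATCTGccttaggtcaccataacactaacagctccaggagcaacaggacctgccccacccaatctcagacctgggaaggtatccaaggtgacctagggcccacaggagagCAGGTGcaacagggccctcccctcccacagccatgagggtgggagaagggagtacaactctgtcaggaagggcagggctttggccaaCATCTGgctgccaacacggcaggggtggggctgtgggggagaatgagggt
Muc2 promoter: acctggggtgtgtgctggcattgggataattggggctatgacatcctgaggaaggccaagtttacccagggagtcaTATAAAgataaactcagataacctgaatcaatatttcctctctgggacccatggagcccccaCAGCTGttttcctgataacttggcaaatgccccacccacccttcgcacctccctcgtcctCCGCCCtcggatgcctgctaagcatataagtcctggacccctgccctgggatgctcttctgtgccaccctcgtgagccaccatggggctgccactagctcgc
Fcgbp promoter: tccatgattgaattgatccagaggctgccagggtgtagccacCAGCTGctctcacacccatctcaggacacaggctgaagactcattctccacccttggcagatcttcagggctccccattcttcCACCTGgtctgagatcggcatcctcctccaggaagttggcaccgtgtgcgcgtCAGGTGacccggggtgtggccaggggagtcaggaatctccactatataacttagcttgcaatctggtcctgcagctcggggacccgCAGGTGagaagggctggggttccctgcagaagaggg
Klk1 held 3 E-box matches, Fcgbp 4, and Muc2 a single match each to the TATA box, E-box and GC box letters. The Agr2 window held 1 match, to the CDX letters. Of 32851 promoters of this length 51.4% held the E-box letters, 35.7% the GC box, 13.6% the TATA box and 10.9% the CDX letters, so these matches describe the windows and mark no bound site.

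Fcgbp, Zg16 and Tff3 were at like levels in both tissues. Fcgbp read 8.49, 8.77 and 8.23 on floxed colon arrays against 8.71, 8.31 and 8.55 on floxed ileum arrays, with means of 8.79 ± 0.36 and 8.93 ± 0.25 in knockout colon and ileum (SD, n = 3). Its regional difference was 0.09 (95% interval -0.23 to 0.40). The groups overlapped throughout. Zg16 read 10.78, 10.83 and 10.56 on floxed colon arrays against 10.43, 9.93 and 10.73 on floxed ileum arrays. Its difference was -0.12 (interval -0.50 to 0.25), and that of Tff3 was 0.10 (interval -0.40 to 0.59). None of these 3 intervals met that of Muc2, whose upper end was -0.95, or those of Klk1, Retnlb and Creb3l1.

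Agr2, Spink4 and Clca1 lay between. Agr2 read 10.06, 8.04 and 8.31 in floxed colon against 7.81, 7.11 and 7.83 in floxed ileum, which did not overlap. In knockout mice it read 10.55, 9.83 and 9.15 in colon against 9.85, 8.26 and 8.37 in ileum, which did. Of all genes 6.13% were lower in ileum without overlap in floxed mice. The difference of Agr2 over both genotypes was -1.12 with a standard error of 0.38 (adjusted p = 0.264). Spink4 differed by -0.66 (adjusted p = 0.665) and Clca1 by -0.65 (adjusted p = 0.432), while the rows annotated Clca1 differed by 0.24 (adjusted p = 0.773). With array background as a covariate Agr2, Spink4 and Clca1 passed as well, at -1.65 (adjusted p = 0.00148), -1.22 (0.000933) and -0.98 (0.0167).

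**Figure D2:**
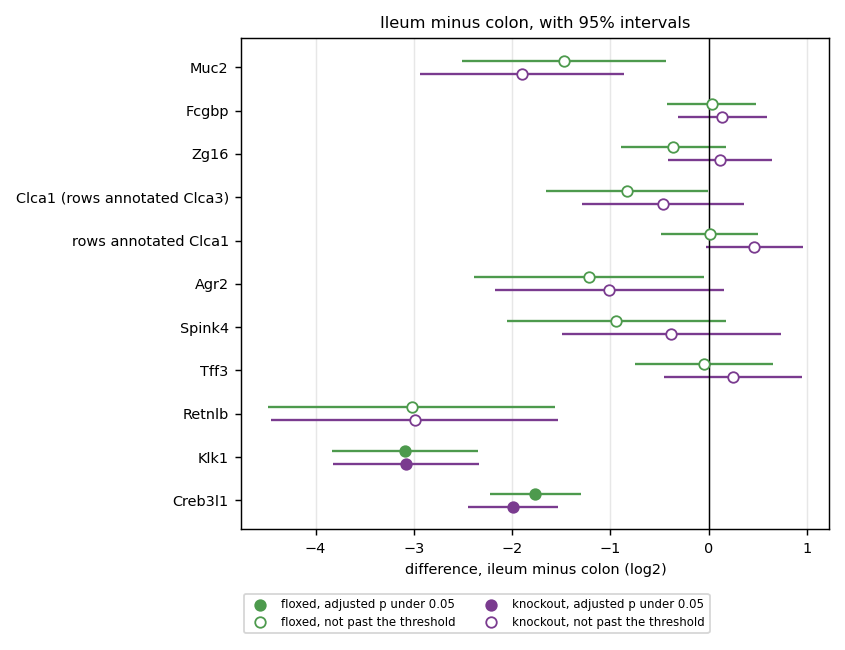
Ileum minus colon difference in log2 value with its 95% interval, in floxed and in knockout mice. Klk1 and Creb3l1 passed the threshold in both genotypes (filled points), Retnlb lay near -3 in both without passing, and Fcgbp, Zg16 and Tff3 lay near 0.

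The groups therefore fell into different orders. For Muc2, Retnlb, Klk1 and Creb3l1 the means ran from colon knockout through colon floxed and ileum knockout to ileum floxed. For Klk1 they were 9.71 ± 0.73, 8.89 ± 0.53, 6.63 ± 0.44 and 5.79 ± 0.10 (SD, n = 3). For Klk1 and Creb3l1 the tissues differed past the threshold in each genotype, and the neighbours within a tissue did not. Colon floxed and ileum knockout, also neighbours in this order, were not compared. For Fcgbp, Zg16 and Tff3 the highest mean was that of knockout ileum, at 8.93, 11.03 and 9.34, and no neighbours that were compared passed. For Fcgbp the neighbours colon knockout and ileum floxed were not compared.

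Tested singly, 61 of the 243 member rows were lower in ileum over both genotypes and none was higher, against 0.348% of all rows called lower and 0.592% called higher. All 9 Klk1 rows passed, as did 18 of 25 Creb3l1 rows, 7 of 8 Retnlb rows and 27 of 86 Muc2 rows. Of the Muc2 rows 85 lay below 0, with a median of -1.65. For Agr2 all 16 rows lay below 0, from -1.65 to -0.40, and none passed. The 28 rows annotated Clca3 also lay below 0, from -1.54 to -0.48, and 1 passed. Of the 45 Fcgbp rows 17 lay below 0, with a median of 0.12. The count of 61 depended on the arrays: it was 106 without colon floxed 2 and 31 to 43 without any other array. In floxed mice alone 16 rows were lower (0.0887% of all rows were) and in knockout mice 20 (0.112% of all rows). Those counts too depended on colon floxed 2, without which they were 35 and 42. In floxed mice the count was 10 without colon floxed 1 and 9 without ileum floxed 3, and in knockout mice it was 13 without colon knockout 1 and 9 without colon knockout 2.

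**Figure D3:**
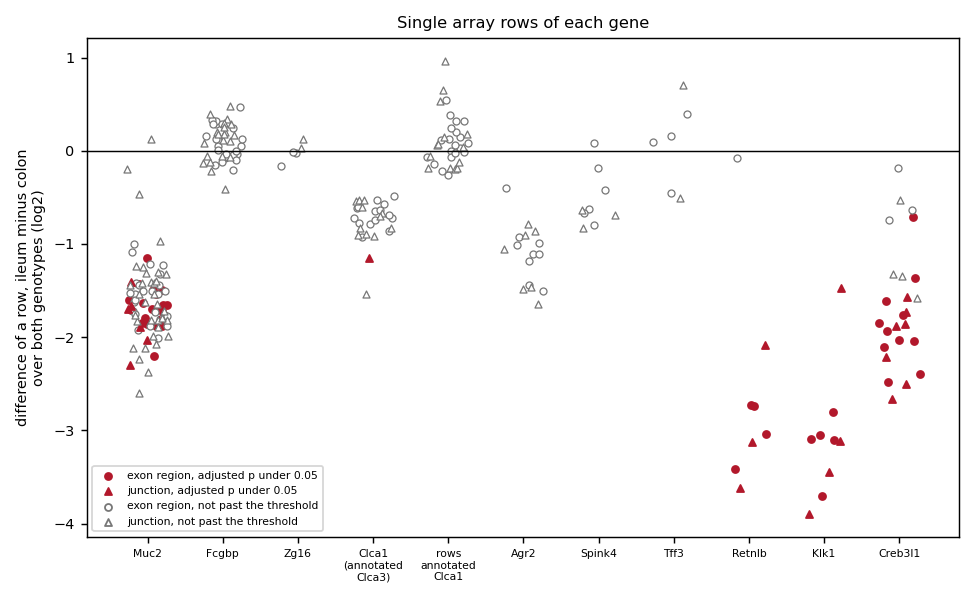
Ileum minus colon difference over both genotypes for each single array row of each gene, with exon regions as circles and exon junctions as triangles, filled where the adjusted p was under 0.05. Nearly all Muc2 rows lie between -1 and -2.6, all Klk1 rows pass, and the Fcgbp rows straddle 0.

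Genes that direct goblet cell differentiation were lower in ileum in part. Of 10 transcription factors 3 fell and none rose: Atoh1, which commits progenitors to the secretory lineage, by 0.81 (adjusted p = 0.0264), Foxa1 by 0.71 (adjusted p = 0.0341) and Klf4, a factor of goblet cell differentiation, by 0.64 (adjusted p = 0.0497). Spdef, which drives goblet cell maturation, had a difference of -0.69 and did not pass (adjusted p = 0.0632). The list's median was -0.45. Klf4 passed narrowly. Over all genes 0.781% were called lower and 1.03% higher, and of genes with a mean above 5 on the log2 scale 2.05% were called lower. The same shares stand beside the related lists below. Calls of these related genes were not checked with single arrays left out. Of 21 genes of mucin glycosylation and the secretory machinery 2 fell, with a list median of -0.25. They were B3gnt6, which builds an O-glycan core of colonic mucin, by 2.45 (adjusted p = 0.0114), and Ern2, the endoplasmic reticulum stress sensor of mucous cells, by 0.81 (adjusted p = 0.00134).

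Other products of goblet cells and the mucus layer moved both ways: of 19 measured 5 fell and 2 rose. Those that fell were Guca2a (guanylin, a peptide of salt and water secretion) by 1.44, Lypd8 (a protein that keeps flagellated bacteria off the colonic surface) by 1.36, Smim14 by 0.77, Fxyd3 by 0.70 and Pla2g10 by 0.48. The adjusted p-values ran from 0.00459 to 0.0428. Mep1b and Mep1a, the meprin subunits, rose by 3.16 (adjusted p = 1.9e-05) and 1.65 (adjusted p = 0.0127). Meprin is a brush border protease that trims small intestinal Muc2, and it is made by enterocytes, of whose 7 measured markers all 7 were higher in ileum. Of 8 general epithelial markers 2 were higher, Krt20 and Vil1, and of 8 enteroendocrine markers none passed. What part these shifts have in the members' differences was not tested.

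Relatives of the members moved in both directions. Among 11 other mucins, transmembrane Muc13 rose by 1.54 (adjusted p = 0.0131) and Muc4 fell by 1.08 (adjusted p = 0.00947), while the gel-forming Muc5ac, Muc5b and Muc6 had group means between 3.63 and 4.22 and did not pass. Of 6 CLCA genes other than the goblet cell protease, among them Clca3a1 (the rows annotated Clca1), Clca4b and Clca4a rose by 4.23 and 3.31 (adjusted p = 1.91e-05 and 0.000467). The 3 other resistin genes, Retn, Retnla and Retnlg, had differences from -0.20 to 0.07, and none passed. Of 10 further kallikreins Klk1b5 fell by 2.29 (adjusted p = 0.000174) and Klk1b21 by 1.06 (adjusted p = 0.000112), beside Klk1. Of 3 other CREB3 genes Creb3l3, a factor of liver and small intestinal lipid handling, rose by 1.70 (adjusted p = 2.13e-05), opposite to Creb3l1. Of 8 other Kazal-type inhibitors Spink1 rose by 2.33 (adjusted p = 0.0212).

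The genotype comparison asked whether loss of Ppard in cells with FSP-driven Cre moved goblet cell genes in the mucosa. No member passed in colon, in ileum, over both tissues or in the interaction, and neither did any other gene (0 of 31383, 0%, by limma). At an unadjusted p under 0.05 the counts over all genes were 1498 in colon, 2086 in ileum, 3361 over both tissues and 776 for the interaction. The members' values lay mostly on one side, and so did those of bright genes. The knockout minus floxed difference was above 0 for 9 of 10 members in colon and 10 of 10 in ileum, with medians of 0.63 and 0.68, against 49% and 48.6% of all genes and medians of -0.01 and -0.01. Of 565 genes with a mean above 8 on the log2 scale, 95.4% in colon and 76.6% in ileum were above 0, with medians of 0.33 and 0.13. Not all members are in that class, as every group mean of Retnlb and Creb3l1 was below 8. Of 6640 genes with a mean above 5, 72.9% in colon and 63.5% in ileum were above 0, with medians of 0.17 and 0.11.

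In ileum 7 of the 10 members had knockout arrays that did not overlap the floxed ones, all higher: Muc2, Fcgbp, Agr2, Spink4, Retnlb, Klk1 and Creb3l1. Retnlb separated narrowly, at 3.11 on ileum knockout 3 against 3.09 on ileum floxed 2, both below the array medians. Over all genes 5.04% were higher without overlap. Over the genes with a mean above 5 on the log2 scale it was 9.29%, and over those with a mean above 8 it was 9.56%. Spink4 read 9.40, 7.85 and 9.79 on floxed against 11.05, 10.15 and 9.88 on knockout arrays. Its difference was 1.35 (95% interval 0.23 to 2.46, adjusted p = 0.711). Agr2 differed by 1.24 (interval 0.07 to 2.41), Retnlb by 1.22 (-0.24 to 2.68), Klk1 by 0.84 (0.09 to 1.58) and Muc2 by 0.69 (-0.34 to 1.73). The remaining differences were 0.67 for Zg16, 0.52 for Tff3, 0.41 for Fcgbp, 0.24 for Creb3l1, 0.43 for the rows annotated Clca1 and 0.85 for Clca1. The adjusted p of the 10 members ran from 0.711 to 0.791. Ileum knockout 1 held the highest ileal value of Muc2, Fcgbp, Agr2, Spink4, Retnlb, Klk1, Creb3l1, Zg16 and Clca1. Without it the differences of Retnlb, Agr2 and Clca1 were 0.35, 0.73 and 0.39, those of Fcgbp, Creb3l1 and the rows annotated Clca1 were 0.27, 0.15 and 0.20, and that of Spink4 was 1.00. Without ileum floxed 2 that of Spink4 was 0.77.

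In colon no member separated the genotypes, where 4.04% of all genes were higher without overlap. The differences were 1.19 for Retnlb (interval -0.27 to 2.65), 1.12 for Muc2 (0.08 to 2.15), 1.04 for Agr2 (-0.13 to 2.20), 0.82 for Klk1 (0.08 to 1.57), 0.79 for Spink4 (-0.33 to 1.90) and 0.47 for Creb3l1 (0.00 to 0.93). Those of Fcgbp, Tff3 and Zg16 were 0.30, 0.22 and 0.19, that of Clca1 was 0.48, and that of the rows annotated Clca1 was -0.03. The adjusted p of the 10 members ran from 0.844 to 0.986. Each of these differences moved by over 1.5 times when some single array was left out. Without colon floxed 2 the differences of Muc2, Retnlb and Agr2 were 0.41, 0.53 and 0.65. Over the arrays left out in turn Spink4 ran from 0.39 to 1.21, Klk1 from 0.42 to 1.14, Creb3l1 from 0.30 to 0.75, Clca1 from 0.20 to 0.73, Fcgbp from 0.10 to 0.44 and Zg16 from 0.02 to 0.39.

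**Figure D4:**
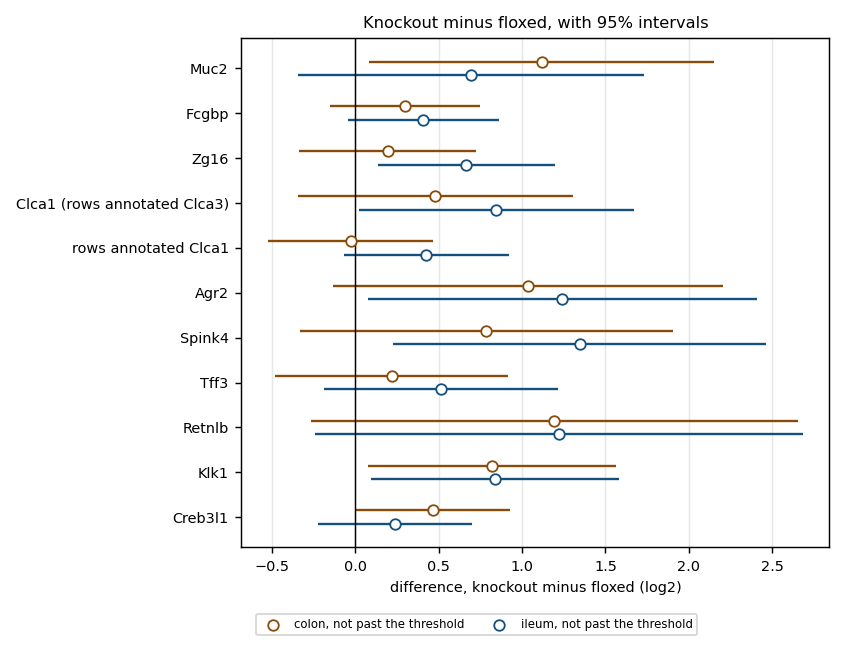
Knockout minus floxed difference in log2 value with its 95% interval, in colon and in ileum. Nearly all points lie above 0, the intervals are wide, and no point passed the threshold.

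Several measures moved with these differences. The control rows with GC-rich probes were at 6.60, 6.84 and 6.97 in floxed and 6.32, 6.48 and 6.76 in knockout colon, and at 6.60, 7.06 and 6.60 in floxed and 6.01, 6.30 and 6.38 in knockout ileum, where the genotypes did not overlap. Bright genes as a whole lay higher in knockout arrays: of 565 genes with a mean above 8 on the log2 scale, 95.4% had a difference above 0 in colon (median 0.33) and 76.6% in ileum (median 0.13), and 9.56% were higher without overlap in ileum. With array background as a covariate the ileal difference of every member except Fcgbp turned negative, from -0.02 for Zg16 to -0.42 for Agr2, and the colonic ones of Zg16, Spink4 and Tff3 turned negative too. In ileum the covariate separates the genotypes completely, so background and genotype cannot be told apart there.

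All 8 epithelial markers had a knockout minus floxed difference above 0 in both tissues, with a mean level of 7.07 to 7.79 in floxed and 7.44 to 8.04 in knockout colon, and of 7.21 to 8.11 in floxed and 8.05 to 8.66 in knockout ileum. Of the 6 measured Paneth cell markers 5 were above 0 in ileum, at a mean level of 4.48 to 5.28 in floxed and 4.64 to 6.83 in knockout mice. The 8 smooth muscle markers were above 0 in both tissues, with a mean level in ileum of 4.91 to 5.68 in floxed and 5.48 to 6.74 in knockout mice, and no marker of these lists had a level of 0. Of 8 fibroblast markers 7 were above 0 in colon and 8 in ileum, with medians of 0.19 and 0.27 and a mean level in ileum of 4.50 to 4.81 in floxed and 4.78 to 5.57 in knockout mice. Of the 7 measured enterocyte markers 6 were above 0 in each tissue, with medians of 0.24 and 0.59. In colon and ileum the medians were 0.50 and 0.53 for the epithelial markers and 0.239 and 0.575 for smooth muscle. For the Paneth cell markers they were 0.22 and 1.09, against 0.63 and 0.68 for the members. The part of these markers in the members' differences was not tested.

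Goblet cell regulators and the other related lists had smaller medians than the members, and none of their genes was called. The 10 transcription factors had a median difference of 0.06 in colon and 0.09 in ileum, with Foxa1 at 0.80 in colon (unadjusted p = 0.00312, adjusted p = 0.844) and Foxa3 at -0.26 in ileum (adjusted p = 0.716). The glycosylation and secretory genes had medians of 0.28 in colon, with 19 of 21 above 0, and 0.09 in ileum, with 18 of 21 above 0. C1galt1, which makes the core structure of many mucin O-glycans, was 1.26 higher in knockout ileum without passing (unadjusted p = 0.00327, adjusted p = 0.711). The 19 other products had medians of 0.25 and 0.39, with Ang4 at 1.31 and Ccl6 at 1.09 in colon and Lypd8 at 0.81 in ileum. The medians of the other mucins were 0.02 and 0.13, of the CLCA genes 0.05 and 0.65, of the resistin genes -0.11 and -0.01, of the kallikreins -0.05 and 0.03, of the CREB3 genes 0.11 and 0.14 and of the Kazal-type inhibitors -0.15 and 0.00 in colon and ileum, with none called.

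No member's regional difference differed between the genotypes past the threshold. The interaction was 0.02 for Klk1 (interval -1.04 to 1.07), -0.23 for Creb3l1 (-0.88 to 0.43), -0.42 for Muc2 (-1.89 to 1.04) and 0.03 for Retnlb (-2.04 to 2.09), and each adjusted p was 1. The intervals of Muc2 and Retnlb leave room for differences of more than 1 in either direction.

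Within groups the goblet cell genes deviated together. Over the 12 deviations from group means, 44 of the 45 pairs among Muc2, Fcgbp, Clca1, Zg16, Agr2, Spink4, Tff3, Retnlb, Klk1 and Creb3l1 had a correlation above 0, with a median of 0.575. Agr2 and Klk1 were the closest pair (0.898), followed by Fcgbp and Clca1 (0.893), a pair of secreted mucus proteins. Muc2 and Fcgbp were the only pair below 0 (-0.135), and Muc2 with Clca1 stood at 0.058. Muc2 deviated with Agr2 (0.764) and Retnlb (0.732) instead. The genes share arrays, amplification and array background: each gene's deviations ran against those of the background, from -0.533 for Retnlb to -0.938 for Spink4, where the median of all genes was 0.145 with quartiles of -0.359 and 0.47. These correlations are descriptions over 12 arrays.

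**Figure D5:**
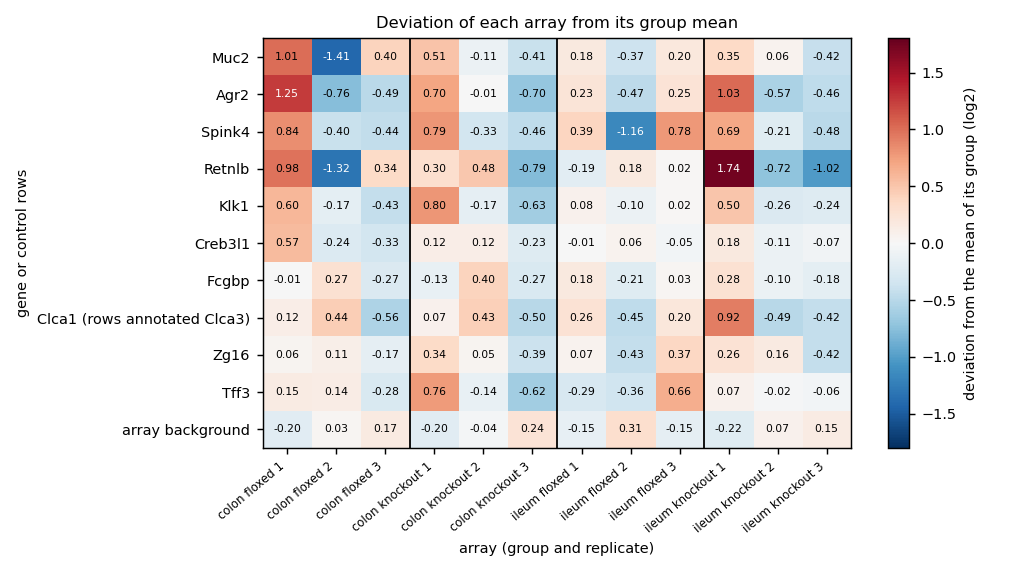
Deviation of each array from the mean of its group in log2 units, for 10 goblet cell genes and for the array background. Muc2 (-1.41) and Retnlb (-1.32) are low in colon floxed 2, where Fcgbp and Clca1 are above their group mean, and most genes are high in ileum knockout 1.

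The genes whose values over the 12 arrays were most like the mean of the goblet cell genes were Aldoa (Pearson's r = 0.983), Col1a2 (0.98), Cd63 (0.976), Pdia5 (0.974), Tspan1 (0.971), Sqor (0.97), Tmem63a (0.968) and Dhx32 (0.964), out of 4093 named protein-coding genes with a mean above 5. Over the deviations from group means they were Ndufb10 (0.989), Mkrn1 and Tuba1a (0.985 each), Ppp2r1a (0.983), Chmp2a (0.981), Rhoa (0.98), Ndufa9 (0.975) and Prkcsh (0.974). The lists share no gene. In all 92 genes were above 0.9 over the arrays and 230 over the deviations.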

How the data were processed

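RNA was amplified and biotin-labelled with a kit for picogram amounts, per the labels' protocols. The deposited table holds log2 expression values for exon regions and junctions on 12 arrays. RMA and Partek are named, without version or role, per the submitters' processing notes, and no genome build is named there. No further normalization was applied and no detection call was used, so differences near background are compressed. Rows with 1 annotated symbol gave gene values as medians. Older symbols were updated through RefSeq names where unambiguous (1465 of 31383), and 13 Muc2 rows that also carry a second symbol were left out.

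Tests were moderated linear models (limma 3.58.1, R 4.3.3) with 4 group means over the 12 arrays, with 8 residual and 4.72 prior degrees of freedom. P-values were two-sided, adjusted with Benjamini-Hochberg over 31383 genes, or over 719071 rows in row tests, and called under 0.05. The fit was also run on simulated data in which each gene varied independently. The genes here deviate together, so that run does not bear on the calls made. Array background is the mean of 11 control rows whose probes hold 15 to 25 G or C bases.

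The members and the 9 lists of related genes were chosen with earlier results of these data known. All members are named in each comparison, related genes where they passed, and otherwise at most the 3 of smallest p of a list. The 8 genes most like the members are the named protein-coding genes with a mean above 5 that correlate best with the members' mean. Alternatives changed row summary, normalization, filters, weights, covariates and arrays. Exchanging the CLCA rows was chosen after seeing the data.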

Additional observations from a re-analysis of the deposited data

How the results depend on the processing

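Counts of members called lower in ileum were 2 in floxed and 2 in knockout mice and 4 over both. With array background as a covariate they were 4, 6 and 6, with array weights 4 in knockout mice, and leaving out single arrays gave 2 to 4, 2 to 4 and 3 to 4. Arrays with the same number deviated together in some pairs only (correlations from -0.175 to 0.53). With 3 arrays per group this does not settle whether the numbers pair the samples. With the replicate number as a block the counts were 3, 4 and 5, where Retnlb passed in floxed and knockout mice (adjusted p = 0.0385 and 0.0335), Muc2 in knockout mice (0.0415) and Agr2 over both (0.0209), and member rows called over both genotypes went from 61 to 110. Rows above 5 alone gave 102, and single arrays left out gave 9 to 35 rows in floxed mice, 9 to 42 in knockout mice and 31 to 106 over both. Calls over all genes went from 184, 250 and 569 (floxed, knockout, both) to 338, 416 and 1070 with the background covariate. They rose to 252, 344 and 763 with the replicate block, and to 328 in knockout mice with array weights. Without single arrays they were 93 to 219, 135 to 287 and 407 to 616. Exon junctions alone, with 22280 genes tested, gave 98, 138 and 331. In the genotype and interaction comparisons no member was called under any of these settings, by limma.

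Klk1 and Creb3l1 kept their regional calls in every setting tried. Knockout minus floxed differences turned negative with the background covariate in ileum for Muc2 (-0.23), Agr2 (-0.42), Spink4 (-0.40), Tff3 (-0.25), Zg16 (-0.022), Retnlb (-0.084), Klk1 (-0.13), Creb3l1 (-0.16), Clca1 (-0.19) and the rows annotated Clca1 (-0.075), and in colon for Spink4 (-0.16), Tff3 (-0.20), Zg16 (-0.18) and Clca1 (-0.084). Quantile normalization turned Fcgbp (-0.19 in colon, -0.084 in ileum), Zg16 (-0.051) and Tff3 (-0.18) negative, and the rows annotated Clca1 in colon to 0.013. Those rows were at 0.025 with the brighter rows of each gene and 0.014 with array weights, and at -0.073 to 0.029 without single arrays. Regional differences near 0 changed sign for Fcgbp (-0.039) and Tff3 (-0.15) with the background covariate and for Zg16 with exon junctions alone (0.08). Without single arrays Tff3 ran from -0.067 to 0.29 between tissues and from -0.16 to 0.53 between genotypes in colon. The cause was not tested in these cases.

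The 3 arrays per group, the low signal of Retnlb in ileum and the rows annotated Clca1 limit these values, and a difference that missed the threshold is not shown to be absent.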
